A study of Glycine max with 63 samples.

Results

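The stretch described here is a run of neighbouring soybean (Glycine max) genes, from GLYMA_13G203300 to GLYMA_13G217700. Its members are all 145 identifiers that lie between these limits, out of 55,897 soybean genes in each count table. The limits were set on the seeds of a field-grown transgenic line, WD-1, in which these genes stood about 2-fold above the wild type, so the members were chosen by the WD-1 field values, which are given below as a description only. Of the 145 members, 121 passed the filter on low counts in the field libraries and 114 in the greenhouse libraries, 113 of them in both. The other 23 passed in neither: 9 had no count in any library, and the other 14 reached at most 0.557 CPM (counts per 1000000 counts of the library).

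The study put 2 Arabidopsis genes, AtWRI1 and AtDGAT, into the cultivar Thorne, and measured total RNA of developing seeds by RNA sequencing in 63 libraries, 3 in each of 21 groups. In the field, whole seeds of the wild type (WT), of the line W-1 and of the line WD-1 were collected at the stages R5, R5/6 and R6. Each of these 27 libraries bulked 4 genotyped seeds of a plot, and the transgenic plants were homozygous T4 and T5 lineages. By the field counts the 2 lines differed in their transgenes: all W-1 and WD-1 libraries had AtWRI1 RNA, but only WD-1 libraries had AtDGAT RNA. In the greenhouse, each of 36 libraries came from 1 immature embryo, peeled free of seed coat and endosperm, of WT, WD-1 or WD-2 at 24, 27, 30 or 33 days after pollination (DAP) by the labels. The labels state neither the promoters of the transgenes nor how many plants founded a line.

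WRI1 is a transcription factor that switches on genes of glycolysis and fatty acid synthesis in developing seeds. DGAT1 is the enzyme that adds the last fatty acid to make triacylglycerol, the storage oil of the seed. In soybean identifiers the number before the G names the chromosome and the digits after it follow the order of genes along it, so consecutive identifiers are neighbours. No identifier of the files could be paired with a gene name or role in the reference table used here (0 matched of 59,048 reference genes), so members are described by identifier, without function or sequence. For the same reason the storage protein and oil body markers of an embryo could not be looked up. Soybean carries many duplicated genes, and how reads were divided between near-identical copies is not given in the sources used here, so the value of a single member with a close copy is uncertain.

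Field libraries held between 1.17 M and 36.2 M counts and greenhouse libraries between 3.02 M and 23.6 M (M, 1000000 counts), and a count of 3 corresponded to at most 2.56 CPM. The greenhouse file names give a line (Wt, G or R) and a time (T2 to T5) that go against the labels, as the 24 DAP libraries of all 3 labelled lines are the files Wt T2, T3 and T4. AtWRI1 RNA followed the file names: the 12 Wt libraries had 0 to 0.408 CPM, 11 of the 12 G libraries 185 to 320 CPM and the 12 R libraries 39 to 324 CPM. The exception was G T5 replicate 2, labelled WD-1 30DAP replicate 2, with 0 CPM. The greenhouse libraries are therefore described first by file name, with T2 to T5 left as the file names write them, and then by label. Most R libraries also stood apart in composition. The median gene of R had a log2 fold change of -1.25 against Wt on total counts. GLYMA_13G021200, outside the stretch, took 3.67% to 40.4% of R counts against 1.86% to 16.6% in Wt. R T3 replicate 1 and R T5 replicate 1, at 11.3% and 3.67%, lay within the Wt range. The part of the shift of R in the results was not tested, and values below are given relative to all genes.

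To place each library, the log2 ratio of each member's CPM to its mean in the reference libraries was taken (with 0.5 CPM added to both), the median over the 83 to 98 members with at least 1 CPM in the reference was formed, and the same median over all genes was subtracted. The reference was WT of the same field stage or Wt of the same file time, without the library itself. On this log2 scale 1 is a doubling, and 0.5 was taken as the line above which a library carried the rise. In the field, WD-1 had levels of 0.930, 0.967 and 0.999 at R5, 0.933, 0.977 and 0.938 at R5/6, and 1.00, 0.875 and 0.934 at R6. WT libraries lay between -0.0565 and 0.102 and W-1 libraries between -0.0443 and 0.102. The 9 WD-1 libraries were thus high at each stage and did not overlap the other lines, while W-1 overlapped WT. Over the stages, single members of WD-1 had a median log2 fold change of 1.03 with quartiles of 0.73 and 1.24, and 91 of the 121 tested lay between 0.5 and 1.5. By the test described below, 83 were higher and 0 lower (2.14% and 0.907% of all genes), which the choice of members fixes.

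In the greenhouse, G was high at T2 and T4 and level with Wt at T3 and T5, while R was high at each time relative to all genes. The level of G at T2 was 0.989, 1.01 and 0.958, and at T4 it was 0.901, 0.878 and 0.879. At T3 the level of G was 0.0383, -0.0490 and -0.0411, and at T5 it was -0.0592, 0.0574 and -0.0262. The 6 G libraries of T2 and T4 did not overlap the 6 of T3 and T5, which overlapped the Wt libraries (-0.0429 to 0.0476). Levels of R were 0.758, 0.795 and 0.911 at T2, 0.776, 0.780 and 0.795 at T3, 0.886, 0.743 and 0.772 at T4, and 0.929, 0.936 and 0.952 at T5. All 12 R libraries lay above every Wt library and above every G library of T3 and T5. As folds, the mean level was 1.98 ± 0.0349 in G at T2 and 1.85 ± 0.0164 at T4 (SD, n = 3), and 1.77, 1.72, 1.74 and 1.92 in R from T2 to T5. The added 0.5 CPM weighs more where CPM are low, as in most R libraries, and draws their level towards 0. In the fits described below, the median member stood 0.97, 0.89, 0.93 and 0.99 above the median gene in R from T2 to T5. In G it stood 1.0 above at T2 and 0.83 at T4. In all, 27 of the 63 libraries lay above 0.5: 9 WD-1 field, 6 G and 12 R libraries. This count rests on subtracting the all-gene median. Without it 17 libraries lay above 0.5, the 9 of WD-1, the 6 of G and 2 of R. The R libraries, at -1.02 to 0.861, then overlapped Wt at -0.502 to 0.227. The 2 of R were T3 replicate 1 and T5 replicate 1, at 0.714 and 0.861, above every Wt library. Their all-gene medians were -0.0621 and -0.0682, against -1.78 to -0.806 in the other R libraries. R T3 replicate 1 held only 3.02 M counts.

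**Figure D1:**
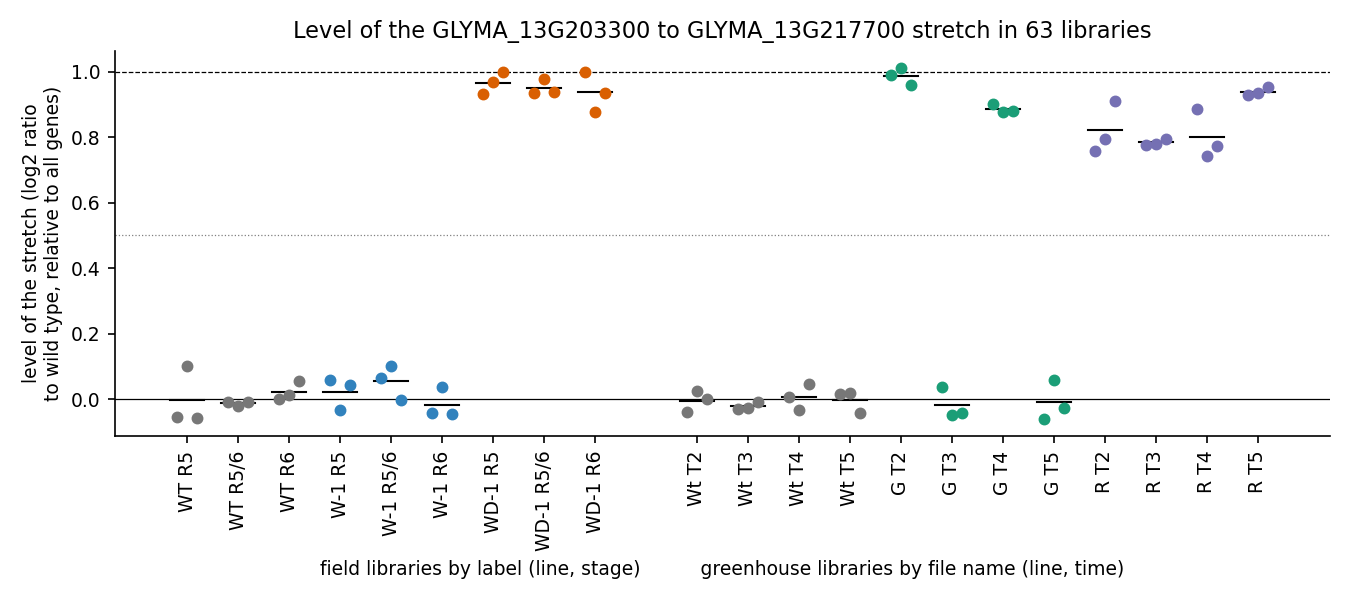
Level of the stretch in each of the 63 libraries (y axis, log2 scale, median over members relative to the reference libraries minus the median over all genes), by field label and by greenhouse file name and time (x axis). Dots are libraries, bars the mean of 3 libraries, the dotted line 0.5 and the dashed line a doubling (1); WD-1, R and G at T2 and T4 lie near 1, and the other groups near 0; without the subtraction the R libraries overlap Wt.

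RNA of both transgenes was present in G libraries with and without the rise. AtWRI1 was at 301, 302 and 320 CPM in G at T3, where the level was near 0, and at 274, 312 and 222 CPM in G at T2, where it was near 1. AtDGAT was at 43.9, 50.8 and 56.6 CPM in G at T3 and at 39.0, 42.0 and 25.1 CPM in G at T2. G T5 replicate 2, without AtWRI1 counts, had a level of 0.0574 and lay with the other G libraries of T5. In the field, W-1 had AtWRI1 between 1.86 and 150 CPM, no AtDGAT count, and no library above 0.5. GLYMA_15G228600, a gene of another chromosome singled out after its values were seen, had at most 0.303 CPM in WD-1, 0.172 in G and 0.192 in R, against 3.80 to 7.58 CPM in Wt of the greenhouse, 3.41 to 15.8 in WT of the field and 5.34 to 17.0 in W-1. It was near 0 in the G libraries of all 4 times, with and without the rise.

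The share of members above the all-gene median tells how widely the rise was spread. It was 89.2% to 100% in the WD-1 field libraries and 84.9% to 98.9% in R, against 45.5% to 57.0% in Wt and 48.0% to 59.2% in W-1. The plain sum of members' CPM overlapped between R, at 1052 to 4350, and Wt, at 1527 to 2162. It was 3628 and 4350 in R T3 replicate 1 and R T5 replicate 1. In G the sum was 4952 to 5385 CPM at T2 and 3183 to 4445 at T4, above the 2151 to 2234 at T3 and 2026 to 2206 at T5. In RNA of whole seeds or embryos, a change in the number of cells of a type and a change of RNA per cell cannot be told apart.

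By the greenhouse labels, the rise lay in the libraries labelled WD-1 27DAP, WT 30DAP, WD-2 30DAP, and WT, WD-1 and WD-2 33DAP. It was not seen in those labelled WT 27DAP, WD-2 27DAP, WD-1 30DAP or in any labelled 24DAP. Compared by label over the 4 times, 1 member of 114 was higher in WD-1 than in WT (1.8% of all genes tested) and 8 in WD-2 (2.51%), and 0 and 1 were lower (1.58% and 1.19%), with median log2 fold changes of -0.01 and 0.03. Leaving out single libraries gave 1 to 4 and 4 to 8 such members. Only at 27 DAP do the file names also set G against Wt, although at different file times. There, 75 members were higher and 5 lower in labelled WD-1 (20.1% and 20.2% of all genes), with a median of 0.89. In labelled WD-2, 17 were higher and 13 lower (13.4% and 10.8%), with a median of -0.09. These label comparisons share the WT libraries of 27 DAP.

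Gene by gene, the quasi-likelihood test of edgeR, adjusted by Benjamini and Hochberg across every gene tested (threshold 0.05), also set T2 and T4 of G apart from T3 and T5. At T2, 85 of the 114 members tested were higher in G than in Wt and 1 was lower, against 5.72% and 4.42% of all 34,548 genes tested. The median log2 fold change of the members was 0.99, with quartiles of 0.76 and 1.32, and 83 members lay between 0.5 and 1.5. At T4, 68 were higher and 1 lower (14.8% and 12.8% of all genes), with a median of 0.81 and 56 members between 0.5 and 1.5. At T3, 17 were higher and 10 lower (12% and 9.22%), and at T5 17 were higher and 20 lower (16.7% and 15.8%), with medians of -0.08 and -0.13. The shares at T3 and T5 stood near those of all genes, and the count of higher members was 11 at T3 without G T3 replicate 3 and 11 at T5 without G T5 replicate 2. A test of whether the difference between G and Wt varied between the 4 times called 83 of the 114 members, against 14.9% of all genes. On total counts alone, without TMM scaling (trimmed mean of M-values), this test called 7 members. The counts of higher members in G then fell to 52, 6, 32 and 10 from T2 to T5, with medians of 1.29, -0.18, 0.85 and 0.17, so the medians kept T2 and T4 apart and that of T5 changed sign. The p-values measure only the spread between these samples, each of 1 embryo. The sample titles do not name the parent plant of an embryo, so a difference between plants cannot be told apart from one between file times.

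In R, 71, 69, 70 and 72 members were higher than in Wt at T2, T3, T4 and T5, and 0, 2, 4 and 3 lower. The shares over all genes were 10%, 15.1%, 19.5% and 18.2% higher and 9.95%, 14.3%, 21.4% and 16.9% lower. Medians were 0.92, 0.84, 0.87 and 0.94. Over the 4 times together 83 members were higher and 5 lower (27.9% and 32.7% of all genes), with a median of 0.88 and quartiles of 0.33 and 1.27. Of the members, 58 were higher in R at all 4 times (6.3% of all genes), 88 at 1 or more (27.5%), and none was lower at all 4 (4.7%); on total counts alone these counts were 2, 17 and 3. The test of a difference between times called 6 members, against 4.54% of all genes, a share close to that of the members, and 2 or 3 without Wt T2 replicate 2, R T2 replicate 3 or R T4 replicate 1, and 1 on total counts alone. These counts rest on TMM scaling: on total counts alone 12 members were higher and 43 lower over the 4 times, with a median of -0.31 (at T2 to T5, -0.55, -0.19, -0.64 and 0.28). The members stood 0.94 above the median of all genes, a distance that a change of scaling leaves nearly as it is by construction, so it is no check of the calls.

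The G and R comparisons with Wt share the Wt libraries, so the lines were also set against each other. The median of R against G was -0.08 at T2 and -0.06 at T4, the times at which both were high. It was 0.79 at T3, where 63 members were higher in R and none lower (8.8% and 10.6% of all genes); on total counts alone that median was -0.14, with all genes at -1.06, and 1 member was higher and 5 lower. At T5 it was 1.03, where 73 were higher and none lower (10.1% and 8.52%); on total counts alone the median was 0.13, with all genes at -0.92, and 9 were higher and 4 lower. At both T3 and T5, 52 members were higher in R, against 2.54% of all genes, and 0 on total counts alone. Over the 4 times 69 were higher and none lower, with 16.5% of all genes higher and 21% lower; on total counts alone this count became 0, with 104 lower.

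**Figure D2:**
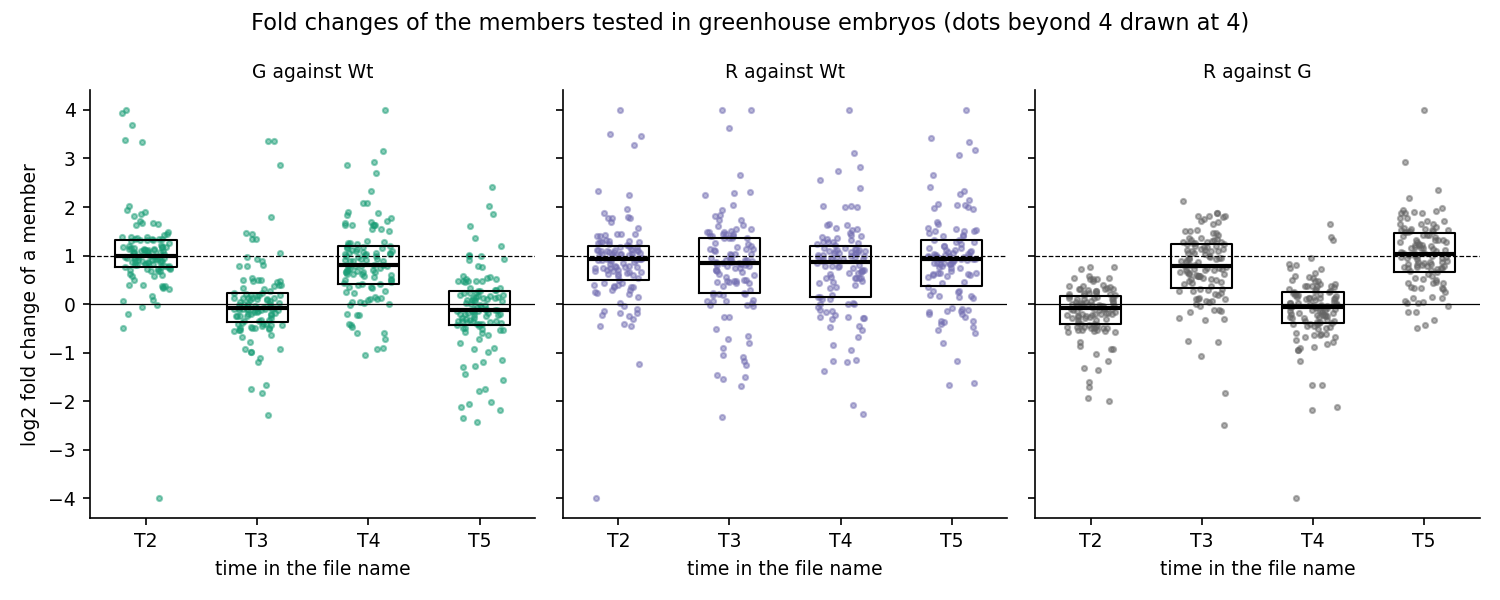
Log2 fold change of each of the 114 tested members (dots, y axis) at T2 to T5 (x axis) for G against Wt, R against Wt and R against G, from TMM-scaled counts; boxes show quartiles and median, and dots beyond 4 are drawn at the limit. The box of G sits near 1 at T2 and T4 and near 0 at T3 and T5, that of R near 1 throughout, and that of R against G near 1 at T3 and T5; on total counts alone the medians of R at T2, T3 and T4 and of R against G at T3 were below 0.

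The rise began and ended near the same identifiers in the greenhouse libraries, which the choice of limits did not use. A running median of 11 tested genes stayed above 0.5 from GLYMA_13G203200 to GLYMA_13G217900 in G at T2, taking in all 114 tested members. In R over the 4 times the first and last members above 0.5 were GLYMA_13G203700 and GLYMA_13G217600, and 109 of the 112 tested between them, ends included, were above. R against G at T5 gave GLYMA_13G203700 to GLYMA_13G217700, with all 113 above. G at T4 gave GLYMA_13G203800 to GLYMA_13G217700, where 98 of 112 were above and the running median dipped below 0.5 in between. These limits vary with the length of the running median. With 5 and 21 genes, 96 and 109 of the 114 members were above 0.5 in R, and 89 and 101 in G at T4. With 21 genes, G at T4 gave GLYMA_13G204900 to GLYMA_13G218300 and G at T2 gave GLYMA_13G203000 to GLYMA_13G218300. Around the stretch, the 100 tested genes on the lower side had a median of -0.06 in G at T2 and -0.05 in R against G at T5, and the 100 on the upper side 0.09 and 0.04. In R over the 4 times these medians were -0.31 and -0.17.

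The genes at the edges were followed across the limits, and the lower edge was not sharp. The first member, GLYMA_13G203300, had 2.60, 2.98 and 2.17 TMM-scaled CPM in Wt at T2 and 6.32, 6.84 and 6.31 in G at T2. In G at T3 it had 2.43, 3.10 and 2.46, and at T4 6.89, 5.16 and 4.56. It was above Wt at T2 and T4 without overlap and back among the Wt values at T3. The log2 fold change of G over Wt was 1.33 at T2 and 0.99 at T4 (edgeR adjusted p = 9.80e-07 and 8.66e-05), and 0.10 at T3 and -0.20 at T5 (adjusted p = 0.784 and 0.463). The call at T4 was lost on total counts alone (adjusted p = 0.0702). The second tested member, GLYMA_13G203700, had few reads, with means of 0.380 to 0.616 TMM-scaled CPM in Wt. Its log2 ratio of group means to Wt (0.5 CPM added to both) was 0.39, -0.28, -0.18 and -0.3 in G from T2 to T5. In R it was -0.5, -0.34, 0.16 and 0.26, so this member did not show the rise. Just outside, GLYMA_13G203200 had a log2 fold change of -0.15 in G and 0.20 in R over the 4 times (adjusted p = 0.592 and 0.507). On total counts alone its R value was -0.96.

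At the other end, the last member, GLYMA_13G217700, stood 0.97 above Wt in G and 1.80 in R on the log2 scale over the 4 times (adjusted p = 1.68e-10 and 3.28e-17). Just outside, GLYMA_13G217900 stood at 0.30 in G (adjusted p = 0.00414) and -0.02 in R (adjusted p = 0.900), and on total counts alone at 0.43 (adjusted p = 0.0871) and -1.22 (adjusted p = 2.14e-07). In the field WD-1 seeds that set the limits, GLYMA_13G203300 stood at 1.05 and GLYMA_13G217700 at 1.14 inside, and GLYMA_13G217900 at 0.18 outside. GLYMA_13G203200, outside the lower limit, stood as high as these members there, at 1.13 ± 0.39 (SE), but was not called (edgeR adjusted p = 0.133). GLYMA_13G218100 was tested in the field only, at -0.02. GLYMA_13G203000, below the lower limit, was listed at 0 in all Wt libraries and in G and R at T2, and averaged 0.504, 0.478 and 1.18 TMM-scaled CPM in G at T3, T4 and T5, so it did not follow the times of the rise.

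**Figure D3:**
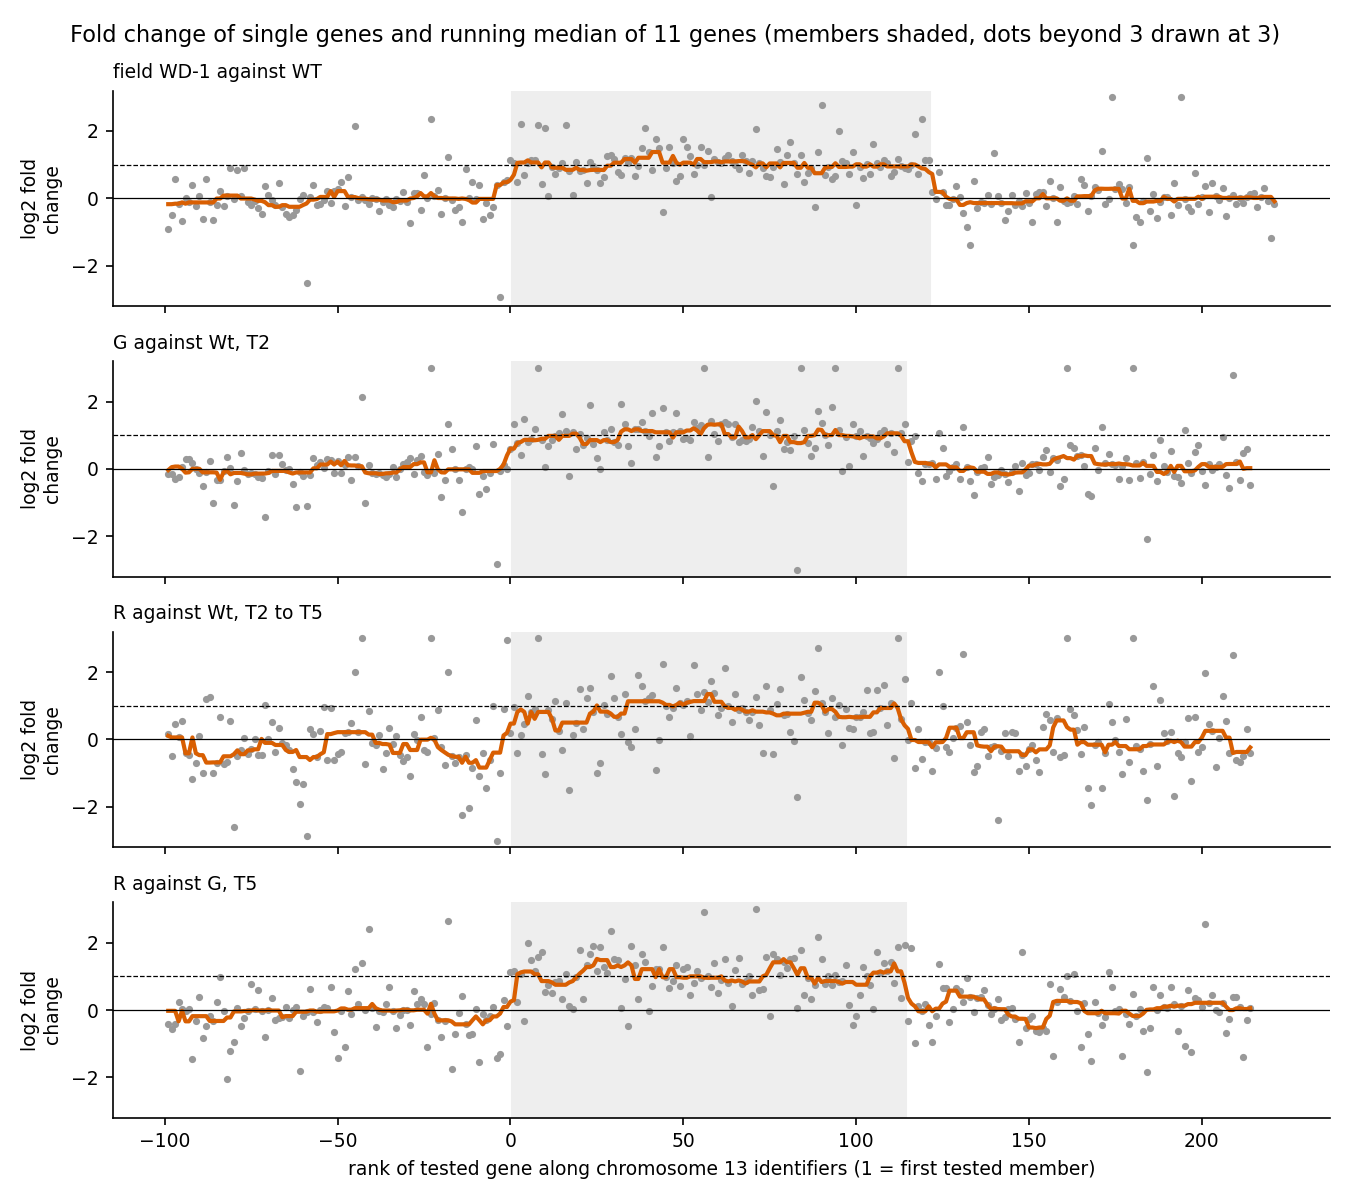
Log2 fold change of single tested genes (dots) and their running median of 11 genes (line) by rank along the identifiers of chromosome 13, with members shaded, for field WD-1, G at T2, R over T2 to T5, and R against G at T5; dots beyond the axis limits are drawn at the limit. The running median rises to about 1 within the shading and returns towards 0 on both sides; the R panel rests on TMM scaling.

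Set beside equally long runs of tested genes elsewhere in the genome, the stretch ranked first of 293 windows in G at T2, with the next window at 0.10. In G at T4 and in R over the 4 times it ranked 2, after the window from GLYMA_13G009700 to GLYMA_13G030400, which holds GLYMA_13G021200 and had medians of 1.58 and 3.61. In G at T3 and T5 it ranked 238 and 265, and for field W-1 101 of 310 windows.

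Within the stretch, members with more reads had higher medians and more calls, in G at T2 and in R. The mean that ordered them took in libraries that carried the rise. A larger rise therefore lifts a member's place in the order, and the trend of the medians is in part built in. The 38 members of lowest mean CPM (0.185 to 3.00) had a median of 0.87 in G at T2, the 38 in the middle 0.98, and the 38 of highest mean (12.4 to 445 CPM) 1.11, and 14, 34 and 37 of their members were higher. For R over the 4 times the same groups had 0.32, 0.92 and 1.05, and 15, 31 and 37 of their members were higher. The members with the most reads in Wt were GLYMA_13G205600, GLYMA_13G217100, GLYMA_13G214600, GLYMA_13G217600, GLYMA_13G217200 and GLYMA_13G208400. All of them except GLYMA_13G208400 were higher in both G and R over the 4 times, but on total counts alone GLYMA_13G205600, GLYMA_13G217100, GLYMA_13G217600 and GLYMA_13G217200 stood below Wt in R, at -0.65, -0.64, -0.52 and -0.10. GLYMA_13G217100, at 0.25 in G (adjusted p = 0.0442), lost that call in 16 of the 36 fits that left out 1 library, and on total counts alone it and GLYMA_13G205600 lost it (adjusted p = 0.213 and 0.209).

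GLYMA_13G217600 shows the common pattern in single libraries of G. In Wt it had 47.8 to 68.2 TMM-scaled CPM over the 12 libraries. In G it had 103, 100 and 101 at T2 and 95, 113 and 118 at T4, against 66.0, 62.1 and 63.4 at T3 and 71.6, 75.5 and 64.5 at T5. The values of T2 and T4 lay above all Wt values, and those of T3 and T5 overlapped or lay just above them. The log2 fold changes were 1.07 and 0.88 at T2 and T4 (adjusted p = 1.30e-07 and 1.30e-06) and 0.21 and 0.24 at T3 and T5 (adjusted p = 0.258 and 0.132). The call at T4 was lost on total counts alone (0.93, adjusted p = 0.157). In R it had 66.8, 72.3 and 75.4 at T2 and 98.0, 92.4 and 79.1 at T5. The rise in R, 0.60 ± 0.06 (SE) over the 4 times with an adjusted p of 5.82e-10, was short of a doubling.

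A first kind of departure was members raised beyond a doubling. The 95% interval of the log2 fold change (normal approximation) lay wholly above 1 in both G and R for 9 members (2.48% of all genes) and wholly below 1 for 44 (83.4%), and these comparisons share the Wt libraries. The G value here is the mean over T2 to T5, and the median member stood at 0.43 on it. A member doubled in G at T2 and T4 only thus falls below 1, so the 44 are no count of departures. GLYMA_13G217500 had the highest fold of the 9 in both G and R. In Wt it had 0.411 to 1.30 TMM-scaled CPM, in G 13.3, 12.4 and 9.39 at T2, 6.67, 7.72 and 7.41 at T3, 19.3, 11.6 and 13 at T4 and 4.12, 4.57 and 5.83 at T5. In R it had 11 to 21.2. Every G and R library stood above every Wt library, and G libraries of T3 and T5 stood below those of T2 and T4. The log2 fold change over the 4 times was 3.39 ± 0.13 in G and 4.43 ± 0.13 in R (adjusted p = 3.74e-21 and 2.98e-24). At single times of G it was 3.39, 3.36, 4.37 and 2.42.

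GLYMA_13G214600, one of the members with the most reads, behaved likewise. It had 172, 173 and 182 TMM-scaled CPM in Wt at T2 and 569, 637 and 531 in G at T2. At T3 it had 103, 130 and 113 in Wt and 440, 395 and 375 in G, and at T5 93.8, 84.4 and 131 in Wt and 154, 169 and 295 in G. The G values lay above the Wt values of the same time even where the stretch as a whole was level with Wt. Its log2 fold change in G was 1.72, 1.80, 2.71 and 1.00 from T2 to T5 (adjusted p = 2.74e-07, 3.71e-08, 8.97e-12 and 0.000292), and 2.73 ± 0.11 in R over the 4 times. At T5 it stood 2.18 ± 0.21 higher in R than in G (adjusted p = 3.06e-08).

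**Figure D4:**
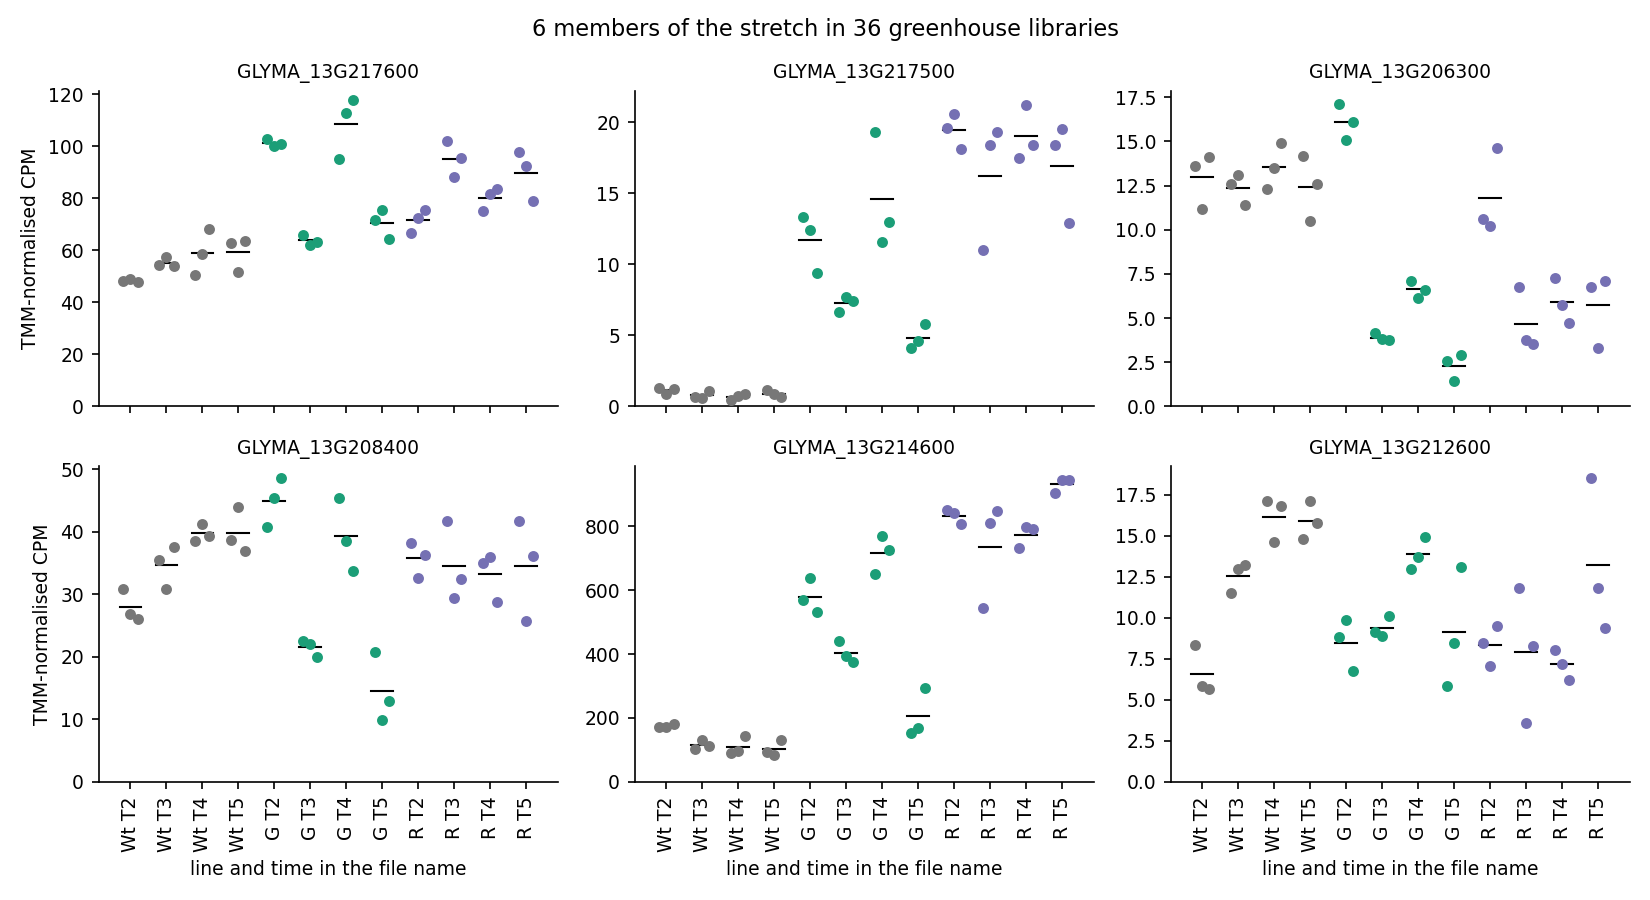
TMM-scaled CPM (y axis) of GLYMA_13G217600, GLYMA_13G208400, GLYMA_13G217500, GLYMA_13G214600, GLYMA_13G206300 and GLYMA_13G212600 in the 36 greenhouse libraries by file name and time (x axis); dots are libraries and bars means of 3. GLYMA_13G217600 in G is high at T2 and T4 only, GLYMA_13G217500 and GLYMA_13G214600 are above Wt at all 4 times, and GLYMA_13G206300 and GLYMA_13G208400 in G fall below Wt at T3 and T5.

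Across the times, 8 of the 114 members were higher in G at each of T2 to T5 (3.25% of all genes), and 4 on total counts alone: GLYMA_13G204300, GLYMA_13G207200, GLYMA_13G208500, GLYMA_13G209800, GLYMA_13G211300, GLYMA_13G212700, GLYMA_13G214600 and GLYMA_13G217500. GLYMA_13G211300 had 21.2 to 31.9 TMM-scaled CPM in Wt, and in G 73.9 to 86.3 at T2, 42.2 to 46.7 at T3, 98.1 to 111 at T4 and 42.7 to 51.5 at T5. The G libraries of T3 and T5 were thus above Wt, but below those of T2 and T4. Its log2 fold change in G was 1.39, 0.92, 1.87 and 0.90. For GLYMA_13G208500 it was 1.81, 1.34, 2.08 and 0.78, and for GLYMA_13G212700 it was 1.68, 1.47, 1.70 and 0.45. Over the 4 times GLYMA_13G204300 stood at 2.93 in G and 3.41 in R, and GLYMA_13G209800 at 1.34 and 2.21 (adjusted p of 1.57e-12 or less for each). GLYMA_13G204300 averaged only 0.317 to 0.462 TMM-scaled CPM in the Wt groups. A count of 3 is 0.127 to 0.995 CPM in greenhouse libraries, so the size of its fold is uncertain. The call of GLYMA_13G212700 at T5, with an adjusted p of 0.00684, was lost without Wt T5 replicate 1 or G T5 replicate 3, at 0.0698 to 0.0720. On total counts alone it was lost too (adjusted p = 0.250), as was that of GLYMA_13G211300 at T3 (adjusted p = 0.194).

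In field W-1, which did not carry the rise, 6 of the 121 tested members differed from WT over the stages (2.53% of 38,914 genes did so), 5 of them higher and 1 lower. The median over the 121 was 0.00. The 5 were GLYMA_13G208500, GLYMA_13G211300, GLYMA_13G212700, GLYMA_13G214600 and GLYMA_13G217500, all of them also among the members higher in G at each time. Both lists were added after their values were seen. The share of all genes on both was not computed, so nothing is drawn from this overlap. GLYMA_13G217500 had 1.60, 1.34 and 4.02 TMM-scaled CPM in WT at R6, 20.1, 43.4 and 31.5 in WD-1, while the W-1 libraries had 16.7, 20.4 and 11.8. Replicates 1 and 2 of WT at R6 held only 2.51 M and 1.17 M counts. A count of 3 is 1.19 and 2.56 CPM in them, so their values rest on few reads. At R5 GLYMA_13G217500 had 1.52, 3.06 and 2.20 in WT and 3.13, 1.99 and 1.36 in W-1, which overlapped. Over the stages the log2 fold change of W-1 was 1.13 ± 0.23 (adjusted p = 0.00480).

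GLYMA_13G214600 had 266, 202 and 279 TMM-scaled CPM in WT at R6, 2483, 2444 and 1215 in WD-1, while the W-1 libraries had 1003, 1589 and 822. W-1 lay above WT without overlap at this stage. Over the stages the log2 fold change of W-1 was 1.09 ± 0.20 (adjusted p = 0.00153) and that of GLYMA_13G212700 0.67 ± 0.13 (adjusted p = 0.00262). GLYMA_13G208500 (0.54, adjusted p = 0.0242) and GLYMA_13G211300 (0.44, adjusted p = 0.0464) were the weaker calls, both lost on total counts alone (adjusted p = 0.146 and 0.289). Ratios of W-1 to WT group means at R5, R5/6 and R6 were -0.15, 0.22 and 1.48 for GLYMA_13G208500. They were -0.22, 0.45 and 1.1 for GLYMA_13G211300 and 0.17, 0.6 and 1.23 for GLYMA_13G212700. The W-1 values over the stages of these members thus rest mainly on R5/6 and R6. GLYMA_13G211300 lost its call in 19 of the 27 fits that left out 1 library, at adjusted p up to 0.135. GLYMA_13G208500 lost its call when any of 5 libraries was left out (replicate 2 of WT at R5, replicate 3 of W-1 at R5, replicate 2 of WT or W-1 at R5/6, replicate 3 of WT at R6), at adjusted p from 0.0503 to 0.0816. Leaving out replicate 3 of W-1 at R5, replicate 2 of WT at R5/6 or replicate 3 of WT at R6 gave a count of 3 higher members.

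The second kind of departure was members that fell short of the rise or went below Wt. Over the 4 times 72 members were higher in G and 6 lower (22.7% and 23.8% of all genes; 57 and 4 on total counts alone), the lower ones being GLYMA_13G204400, GLYMA_13G204600, GLYMA_13G206300, GLYMA_13G207400, GLYMA_13G208400 and GLYMA_13G212900. In R 5 were lower, GLYMA_13G204600, GLYMA_13G205400, GLYMA_13G206300, GLYMA_13G208300 and GLYMA_13G212600. GLYMA_13G206300 had 10.5 to 14.9 TMM-scaled CPM in Wt. In G it had 17.1, 15.1 and 16.1 at T2, 4.14, 3.79 and 3.74 at T3, 7.10, 6.15 and 6.60 at T4, and 2.57, 1.41 and 2.88 at T5. It was above Wt at T2 and below it at the later times without overlap. The log2 fold change was 0.32 at T2 (adjusted p = 0.303), then -1.67, -1.05 and -2.34 (adjusted p = 6.65e-08, 7.66e-05 and 1.92e-10). Its call at T4 was lost on total counts alone (adjusted p = 0.183).

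In R the same gene had 10.6, 10.2 and 14.6 TMM-scaled CPM at T2 and 3.30 to 7.25 at T3 to T5, so it overlapped the Wt values at T2 and lay below them later. Over the 4 times it stood at -1.19 ± 0.10 in G and -0.99 ± 0.11 in R (adjusted p = 3.50e-12 and 1.56e-09). At T5 it was 1.17 ± 0.24 higher in R than in G (adjusted p = 0.000846), although below Wt in both. That difference had an adjusted p of 0.0737 without R T5 replicate 1 and of 0.424 on total counts alone. In field WD-1 it stood at 0.46 over the stages and was not called. Its log2 ratios of group means to WT there were 1.64, 0.12 and -0.06 at R5, R5/6 and R6.

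GLYMA_13G208400, with the most reads of the lower members, had 38.7, 44.0 and 37.0 TMM-scaled CPM in Wt at T5, 20.7, 9.85 and 13 in G and 41.7, 25.7 and 36.1 in R. G lay below Wt without overlap, and R overlapped Wt. Its log2 fold change in G was 0.68, -0.68, -0.02 and -1.43 from T2 to T5 (adjusted p = 0.00932, 0.00540, 0.952 and 2.27e-07). In R over the 4 times it was -0.03 ± 0.09 (adjusted p = 0.795), and in R against G at T5 1.22 ± 0.19 (adjusted p = 3.27e-05). On total counts alone these were -1.12 (adjusted p = 7.06e-06) and 0.38 (adjusted p = 0.445), and the calls of G at T2, T3 and T5 were lost (adjusted p = 0.282, 0.388 and 0.0754). The call of G at T2 was lost without Wt T2 replicate 3 (adjusted p = 0.0532).

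GLYMA_13G213500 had 15.4 to 21.3 TMM-scaled CPM in Wt, and in G 28.1, 27.4 and 32.7 at T2, 11.2, 10.5 and 11.9 at T3, 28.8, 25.1 and 23.9 at T4 and 11.6, 11.4 and 9.96 at T5. It was above Wt at T2 and T4 and below it at T3 and T5, with no overlap. The log2 fold changes were 0.60, -0.78, 0.45 and -0.64 (adjusted p = 0.000485, 1.00e-05, 0.00446 and 0.000116), and on total counts alone none of these calls was kept (adjusted p = 0.195, 0.167, 0.569 and 0.613). R had 25.3 to 38.3 and stood at 0.72 ± 0.06 over the 4 times, or -0.45 on total counts alone. It was the member lower in field W-1, at -0.39 ± 0.09 (adjusted p = 0.0122), with 18.4, 18.5 and 17.4 TMM-scaled CPM in W-1 and 37.4, 33.6 and 29.8 in WT at R6.

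In G at both T3 and T5, 7 of the 114 members were lower than Wt, against 4.74% of all genes, a share not far from theirs, and 4 were on total counts alone: GLYMA_13G204400, GLYMA_13G206300, GLYMA_13G207400, GLYMA_13G208400, GLYMA_13G212900, GLYMA_13G213500 and GLYMA_13G214900. Their values in R against G at T5 included 1.71 for GLYMA_13G204400, 1.91 for GLYMA_13G207400 and 1.66 for GLYMA_13G212900 (adjusted p = 0.0150, 0.000155 and 0.0118). The first was lost without R T5 replicate 1 or 2 and the last without G T5 replicate 1 or R T5 replicate 1, at adjusted p up to 0.111 and 0.186. Both were lost on total counts alone (adjusted p = 0.240 and 0.203). GLYMA_13G212600 fell short of the rise in both R and G. It had 5.64 to 17.1 TMM-scaled CPM in Wt and 3.59 to 18.5 in R, which overlapped. In R it stood at -0.42 ± 0.13 over the 4 times (adjusted p = 0.00572). Its log2 ratio of group means to Wt was 0.32, -0.65, -1.13 and -0.26 in R from T2 to T5. In G this ratio was 0.34, -0.41, -0.21 and -0.77. Over the 4 times of G it was not called, but with another test it was lower (-0.28, DESeq2 adjusted p = 0.0468). Among the members with fewest reads, GLYMA_13G205400 stood at -1.51 and GLYMA_13G204600 at -1.02 in R (adjusted p = 0.00178 and 0.00299).

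**Figure D5:**
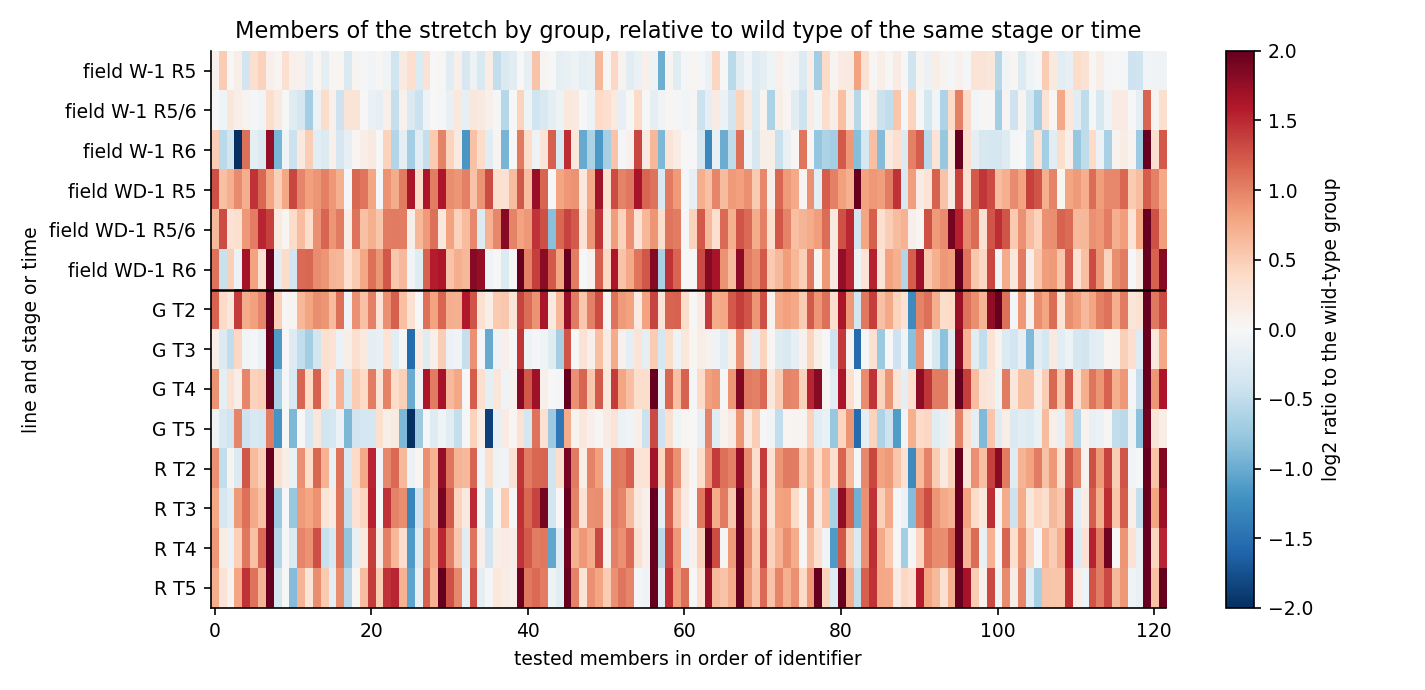
Log2 ratio of the mean TMM-scaled CPM of each group to the wild type of the same stage or file time (0.5 CPM added to both; colours reach their limits at -2 and 2) for the 122 members tested in either fit, in order of identifier, across 14 groups (1 horizontal band each). The bands of WD-1, R and G at T2 and T4 are raised over most of their length, while those of W-1 and of G at T3 and T5 are mixed around 0.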

How the data were processed

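Total RNA of field seeds (27 libraries) and greenhouse embryos (36 libraries) had been sequenced, and 1 table per library holds estimated counts of reads per gene (expected counts, not normalized), as the authors deposited them per the file headers. The submitters' processing notes name kallisto 0.43.1 beside FastQC 0.11.5, R 3.6.3 and sleuth 0.30.0, with no order of steps, and for build and annotation the sources used here give none. Between 55.4% and 87.1% of the values per library, zeros included, were exactly whole numbers, the rest were rounded, and a row without a gene name was dropped (at most 4 counts per library). The shallowest library had 1.17 M counts (M, 1000000 counts), 10 field and 5 greenhouse libraries had under 10 M, and a floor of 3 counts was 0.0828 to 2.56 CPM, which covers counting error only. No pair of libraries shared more than 2.16% of its values among genes with at least 10 counts in both.

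Field groups follow the labels and greenhouse groups the line and time in the file names, with the labels as a second grouping. Members and lists were chosen with earlier results of these data known. Genes were filtered (filterByExpr), scaled by TMM and tested with edgeR 4.0.16 (R 4.3.3; quasi-likelihood F-test, 2-sided, Benjamini-Hochberg over all genes, 0.05), with field and greenhouse libraries fitted apart and all groups of a fit sharing 1 estimate of the spread. Levels per library, running medians and windows are descriptions without a test. The subtraction of the all-gene median, the line at 0.5, the fits of single times and the test of a difference between times were chosen after the data were seen. Named members were those with the most reads in Wt, those whose interval excluded a doubling on the same side in G and R, those lower in a comparison, and those at the limits. Members higher in G at each time, lower in G at T3 and T5, called in W-1 or differing between times in R were added after their values were seen. In simulated counts with 200 changed genes, the comparison of W-1 with WT over the stages (38,059 genes) found 75% of the genes changed 2-fold and 97% of those changed 4-fold, beside 11 false calls. For W-1 against WT at R6 alone these were 12%, 67% and 4, so most 2-fold changes at that stage were missed. For G against Wt at T3 (34,033 genes) these were 70%, 97% and 12. Alternatives were DESeq2 1.42.0, other scalings, no filter, deeper libraries, a replicate block and leaving out each library. Same-numbered libraries had a median correlation of deviations of -0.00264 in the field and 0.0107 in the greenhouse. Single pairs ranged from -0.124 to 0.257 and from -0.25 to 0.498. Replicate numbers thus showed no pairing at the median, which does not exclude it for some libraries.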

Additional observations from a re-analysis of the deposited data

Results flagged for a closer look

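The difference between G and Wt varied between the 4 file times in 83 of 114 members by the test of that difference itself (edgeR, Benjamini-Hochberg adjustment), against 14.9% of all genes, and in 7 on total counts alone. Differences between parent plants, which the titles do not name, cannot be told apart from those between file times. Under TMM scaling, among members with the most reads, adjusted p was 2.51e-06 for GLYMA_13G208400, 6.92e-05 for GLYMA_13G217200, 0.000466 for GLYMA_13G217600, 0.00075 for GLYMA_13G214600, 0.00395 for GLYMA_13G205600 and 0.00516 for GLYMA_13G217100. Among members that departed from the rise it was 1.14e-07 for GLYMA_13G213500, 1.55e-07 for GLYMA_13G206300, 1.12e-05 for GLYMA_13G212700, 0.000812 for GLYMA_13G208500, 0.000969 for GLYMA_13G211300 and 0.00542 for GLYMA_13G217500. At the ends of the stretch it was 0.000126 for GLYMA_13G203300 and 0.000483 for GLYMA_13G217700.

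The difference between R and Wt varied between times in 6 of 114 members, close to the 4.54% of all genes, in 2 or 3 without Wt T2 replicate 2, R T2 replicate 3 or R T4 replicate 1, and in 1 on total counts alone. Adjusted p was 0.00565 for GLYMA_13G212700, 0.00787 for GLYMA_13G216400, 0.0104 for GLYMA_13G206300, 0.0188 for GLYMA_13G211000, 0.0353 for GLYMA_13G212600 and 0.037 for GLYMA_13G210800. R and G differed over the 4 times in 69 members, all higher in R under TMM scaling and none higher on total counts alone.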

How the results depend on the processing

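Counts of higher members stayed within 1.5 times in 127 refits with another setting and moved further in 19, and with 1 library left out in 644 and 22, and the 27 libraries above 0.5 stayed 27 under another CPM minimum (5) and other pseudocounts (0.1 and 2), though 24 of 63 group means moved by more than their SD, by at most 0.264. Without subtracting the all-gene median, a setting added after seeing the data, 17 libraries lay above 0.5, and group means of R at T2, T3 and T4 became -0.588, -0.206 and -0.608. Scaling moved most: on total counts alone the count of higher members was 3 for W-1, 12 for R and 0 for R against G over the times, and 0 for labelled WD-1 and WD-2 over the times. At T2 it was 52 in G and 2 in R; at T3 6 in G, 9 in R and 1 in R against G; at T4 32 in G and 5 in R; at T5 10 in G, 16 in R and 9 in R against G; and 7 for labelled WD-2 at 27 DAP. The tests of a difference between times then called 7 members for G and 1 for R. Medians changed sign on total counts alone: -0.307 for R and -0.860 for R against G over the times, -0.547, -0.194 and -0.636 for R at T2, T3 and T4, -0.143 for R against G at T3 and 0.170 for G at T5, while all genes had medians of -1.54, -1.14 and -1.58 for R at T2, T3 and T4. With only the libraries compared, R against G at T4 had 0.006. In R over the times the log2 fold change became -0.65 for GLYMA_13G205600, -0.64 for GLYMA_13G217100, -0.52 for GLYMA_13G217600, -0.10 for GLYMA_13G217200, -0.45 for GLYMA_13G213500, -0.26 for GLYMA_13G203300 and -0.96 for GLYMA_13G203200. In R against G at T5 it became -0.55 for GLYMA_13G217600, -0.20 for GLYMA_13G209800 and -0.35 for GLYMA_13G208200. The cause was not tested. Labelled WD-1 over the times gave 4 with DESeq2 and 2 without the filter, and G at T5 gave 11 without the library lacking AtWRI1.

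With 1 library left out, the count of higher members ranged from 3 to 5 for W-1, 72 to 84 for WD-1, 68 to 77 for G, 80 to 85 for R and 65 to 72 for R against G over stages or times. For G it ranged from 76 to 85, 11 to 18, 63 to 70 and 11 to 18 at T2 to T5, and for R from 63 to 73, 59 to 71, 62 to 70 and 64 to 74. For R against G it was 54 to 65 at T3 and 65 to 77 at T5. The tests between times called 79 to 88 for G and 2 to 8 for R. By label the ranges were 1 to 4 for WD-1 and 4 to 8 for WD-2 over the times, and 71 to 78 and 13 to 18 at 27 DAP.

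With the replicate number as a block, 83 members were higher in R, 73 in G and 4 in W-1. GLYMA_13G211300 then lost its call in W-1 (edgeR adjusted p = 0.0596). Replicate numbers showed no pairing of the libraries at the median. With libraries over 10 M counts only (M, 1000000), W-1 calls of GLYMA_13G208500 and GLYMA_13G213500 had adjusted p of 0.113 and 0.0992. Shallow libraries and 3 per group limit calls of members with few reads.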
